A study of Mus musculus with 52 samples.

Results

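The genes described here are 8 genes of the NRF2 antioxidant response, chosen by name among the 39144 genes that the deposited tables list. They are Nfe2l2, which encodes the transcription factor NRF2, its inhibitor Keap1, and the 6 target genes Nqo1, Hmox1, Gclc, Gclm, Srxn1 and Osgin1. All 8 were listed in every tissue. RNA was sequenced from male mice, either wild type or homozygous for Tug1tm1.1Vlcg (Tug1-/-), an allele in which the body of the lncRNA gene Tug1 was exchanged for a lacZ reporter behind the endogenous promoter and first exon. Of the 52 samples of the series, 46 lie behind the tables. Testes had 4 wild-type, 4 Tug1-/- and 3 rescue samples, and prostate had 3 wild-type and 2 Tug1-/- samples. Each genotype had 3 samples of heart, liver, spleen, eyes and MEFs (embryonic fibroblasts of the mouse, grown in culture). Brain values came from libraries outside the series. Testes of F1 hybrid mice, 6 samples, were not analysed here.

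For the samples of the series analysed here the labels give a C57BL/6J/129S6 background and no age. The labels do not cover the brain libraries. The study's methods say that the allele was backcrossed to C57BL/6J. Tissues other than testes carried the allele without the Neo selection cassette. In testes the labels place Neo and LacZ in the Tug1-/- and rescue mice and no Neo in the wild type, while the study's methods say that mice free of the neomycin-resistance gene were chosen to expand the colony. If the labels hold, an effect of the cassette and an effect of the Tug1 deletion cannot be told apart in testes. Rescue mice were Tug1-/- ; tg(Tug1); CAGs-rtTA3: they lacked Tug1 and carried a Tug1 transgene, without the 5′ region of the gene, that was switched on by a doxycycline-dependent activator under the CAG promoter. Per the study's methods the rescue mice were kept on doxycycline food. Whether the other testes groups had this diet is not given in the labels. The activator was brought in, per the study's methods, by crosses to a separate mouse line. Diet, activator, that line and transgene cannot therefore be told apart in the rescue comparisons. The MEFs were primary cultures at passage 2 from male embryos, with wild-type and Tug1-/- littermates per the study's methods. Which cultures came from the same litter is not given in the labels.

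Each value is the authors' mean over the samples of a group, in TPM, which scales the reads of a gene by its length and by the total of its sample. No value of a single sample was given, so no spread over samples was computed. The tables also hold statistics of the authors' own comparisons, which were not used here, and no difference below was tested. Ratios are given as log2 of the Tug1-/- mean over the wild-type mean after 0.5 TPM was added to each, for genes with an average of both means of at least 1 TPM. A ratio of 1.5-fold or more in either direction was taken as past the limit, and the share of all genes past it in the same tissue stands beside the count of the 8 genes. The counting error alone of a group mean of these genes was between 0.349% and 5.47% in the 6 tissues where it could be estimated, and this does not include differences between animals.

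Tug1 itself, which the allele removes, lay between 10.1 TPM in liver and 57.5 TPM in eyes of wild-type mice. In Tug1-/- it was 0.885 TPM in testes and at most 0.237 TPM elsewhere. Rescue testes had 1.60 TPM, against 40.1 TPM in wild-type testes. Markers of each labelled tissue were high where they should be, with summed means of 7101 TPM for 3 heart muscle genes in heart, 120615 TPM for 3 hepatocyte genes in liver and 37812 TPM for 3 germ cell genes in testes.

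NRF2 is held at a low level in unstressed cells because KEAP1 binds it and hands it to a CUL3 ubiquitin ligase for degradation. Oxidants and electrophiles modify KEAP1, and NRF2 then pairs with a small MAF protein and binds antioxidant response elements near its targets, which supply glutathione, reduce quinones and peroxides, and break down haem. The control acts on the NRF2 protein, so the Nfe2l2 mRNA does not by itself report the activity of the factor. Several targets have other inputs. Hmox1 in particular is released from the repressor BACH1 by haem and is high in macrophages that recycle red cells.

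An antioxidant response element has the core TGACNNNGC, and a close relative read by MAF dimers has TGAGNNNGC. Both letter strings were searched on both strands of the RefSeq promoter windows (GRCm38.p6), which run from 250 bases before to 50 bases after a transcription start. Windows were matched for 6 of the 8 genes, and Hmox1 and Gclc were not matched. TGACNNNGC stood in the windows of 3 genes, and 12.4% of all 32851 windows held it. TGAGNNNGC stood in those of 2 genes, beside 17.6% of all windows. The windows of 4 genes held at least one of them, and 27.8% of all windows did. A match is a match of letters and was not tested as a binding site. The windows of Srxn1, with 3 matches, and of Gclm, the gene with the highest ratio in spleen, are printed whole in the direction of transcription with the matches in capitals, and the surroundings of the matches in Nfe2l2 and Osgin1 follow.
Srxn1, chr2:152105274-152105573, plus strand: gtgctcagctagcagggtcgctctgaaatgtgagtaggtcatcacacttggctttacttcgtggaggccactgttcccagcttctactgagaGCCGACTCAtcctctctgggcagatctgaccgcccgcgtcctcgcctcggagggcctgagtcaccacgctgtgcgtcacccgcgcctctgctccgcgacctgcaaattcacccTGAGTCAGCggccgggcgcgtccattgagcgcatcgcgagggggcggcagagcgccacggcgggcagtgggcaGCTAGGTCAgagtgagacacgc
Gclm, chr3:122245307-122245606, plus strand: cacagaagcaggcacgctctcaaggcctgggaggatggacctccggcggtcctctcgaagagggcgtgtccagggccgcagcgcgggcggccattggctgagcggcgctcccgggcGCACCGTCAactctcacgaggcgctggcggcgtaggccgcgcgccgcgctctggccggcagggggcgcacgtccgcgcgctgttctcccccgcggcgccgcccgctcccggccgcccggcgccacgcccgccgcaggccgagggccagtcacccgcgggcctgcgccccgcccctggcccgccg
Nfe2l2, match at chr2:75704895-75704903, minus strand: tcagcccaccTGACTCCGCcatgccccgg
Osgin1, match at chr8:119437048-119437056, plus strand: aggggcccctGCTGACTCAcgcttatgaa
In Srxn1 the matches began 158 and 45 bases before the start and at base 29 after it. The single match began 134 bases before the start in Gclm, 240 before it in Nfe2l2 and 99 before it in Osgin1. The Osgin1 window belongs to a RefSeq start that lies inside the gene as the deposited tables place it, downstream of its first base. The windows of Nqo1 and Keap1 held neither string, and sequence outside the windows was not searched.

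The regulators differed least between tissues. Nfe2l2 (chr2:75675513-75704641, minus strand, GRCm38) had its highest wild-type mean in MEFs, 96.2 TPM, and its lowest in testes, 19.9 TPM, a range of 4.83-fold. Keap1 (chr9:21229730-21239361, minus strand) lay between 20.8 TPM in liver and 40.3 TPM in brain, a range of 1.93-fold. The ratio of the Nfe2l2 level to the Keap1 level, both per length, was 3.86 in wild-type MEFs and 2.69 in liver but 0.780 in prostate, 0.730 in testes and 0.533 in brain.

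The targets differed more, and each of the 6 was the most abundant target in at least 1 tissue. Hmox1 (chr8:75093621-75100589, plus strand), the inducible haem oxygenase, had 1069 TPM in wild-type spleen, 226 TPM in MEFs, 68.3 TPM in eyes, 19.5 TPM in liver, 13.8 TPM in heart, 11.4 TPM in testes, 10.3 TPM in brain and 8.87 TPM in prostate. It made up 90.3% of the summed mean of the 6 targets in spleen and 57.6% in MEFs. Osgin1 (chr8:119434124-119446256, plus strand), an oxidative stress-induced growth inhibitor, was highest in testes at 244 TPM, followed by liver at 137 TPM and prostate at 41.8 TPM. It was 10.8 TPM in spleen, 10.0 TPM in eyes, 3.93 TPM in MEFs, 2.77 TPM in heart and 0.501 TPM in brain, where it alone of all 64 combinations of gene and tissue did not reach the 1 TPM minimum. Its highest and lowest means differed by 487-fold, more than those of the other 7 genes.

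Gclc and Gclm encode the catalytic and the modifier subunit of glutamate-cysteine ligase, which makes the first and limiting step of glutathione synthesis. Gclc (chr9:77754535-77794485, plus strand) was highest in liver at 274 TPM and lowest in heart at 8.91 TPM. Gclm (chr3:122245557-122270732, plus strand) followed the same ends of the order, with 114 TPM in liver and 9.47 TPM in heart. The level of Gclc over that of Gclm was 2.40 in wild-type liver, 2.07 in MEFs and 2.02 in spleen, 1.83 in eyes, 1.67 in testes and 1.41 in brain. In heart it was 0.941 and in prostate 0.609, so that the modifier was the more abundant mRNA in these tissues.

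Nqo1 (chr8:107388225-107403206, minus strand), a quinone reductase, was highest in heart at 78.5 TPM and in eyes at 52.7 TPM. It was 20.3 TPM in MEFs, 16.2 TPM in brain, 12.1 TPM in liver and 10.4 TPM in spleen, and 7.14 and 7.01 TPM in testes and prostate. Srxn1 (chr2:152105516-152111376, plus strand), the sulfiredoxin that restores oxidised peroxiredoxins, was highest in brain at 159 TPM and in MEFs at 88.2 TPM, and lowest in prostate at 14.1 TPM and spleen at 13.1 TPM. Srxn1 was the only one of the 8 genes whose order of tissues was the same in Tug1-/- as in wild type. Neighbours such as Nqo1 in testes and prostate, or Keap1 in brain and eyes at 40.3 and 39.1 TPM, stood close together, and without a spread their order cannot be told apart from a tie.

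**Figure D1:**
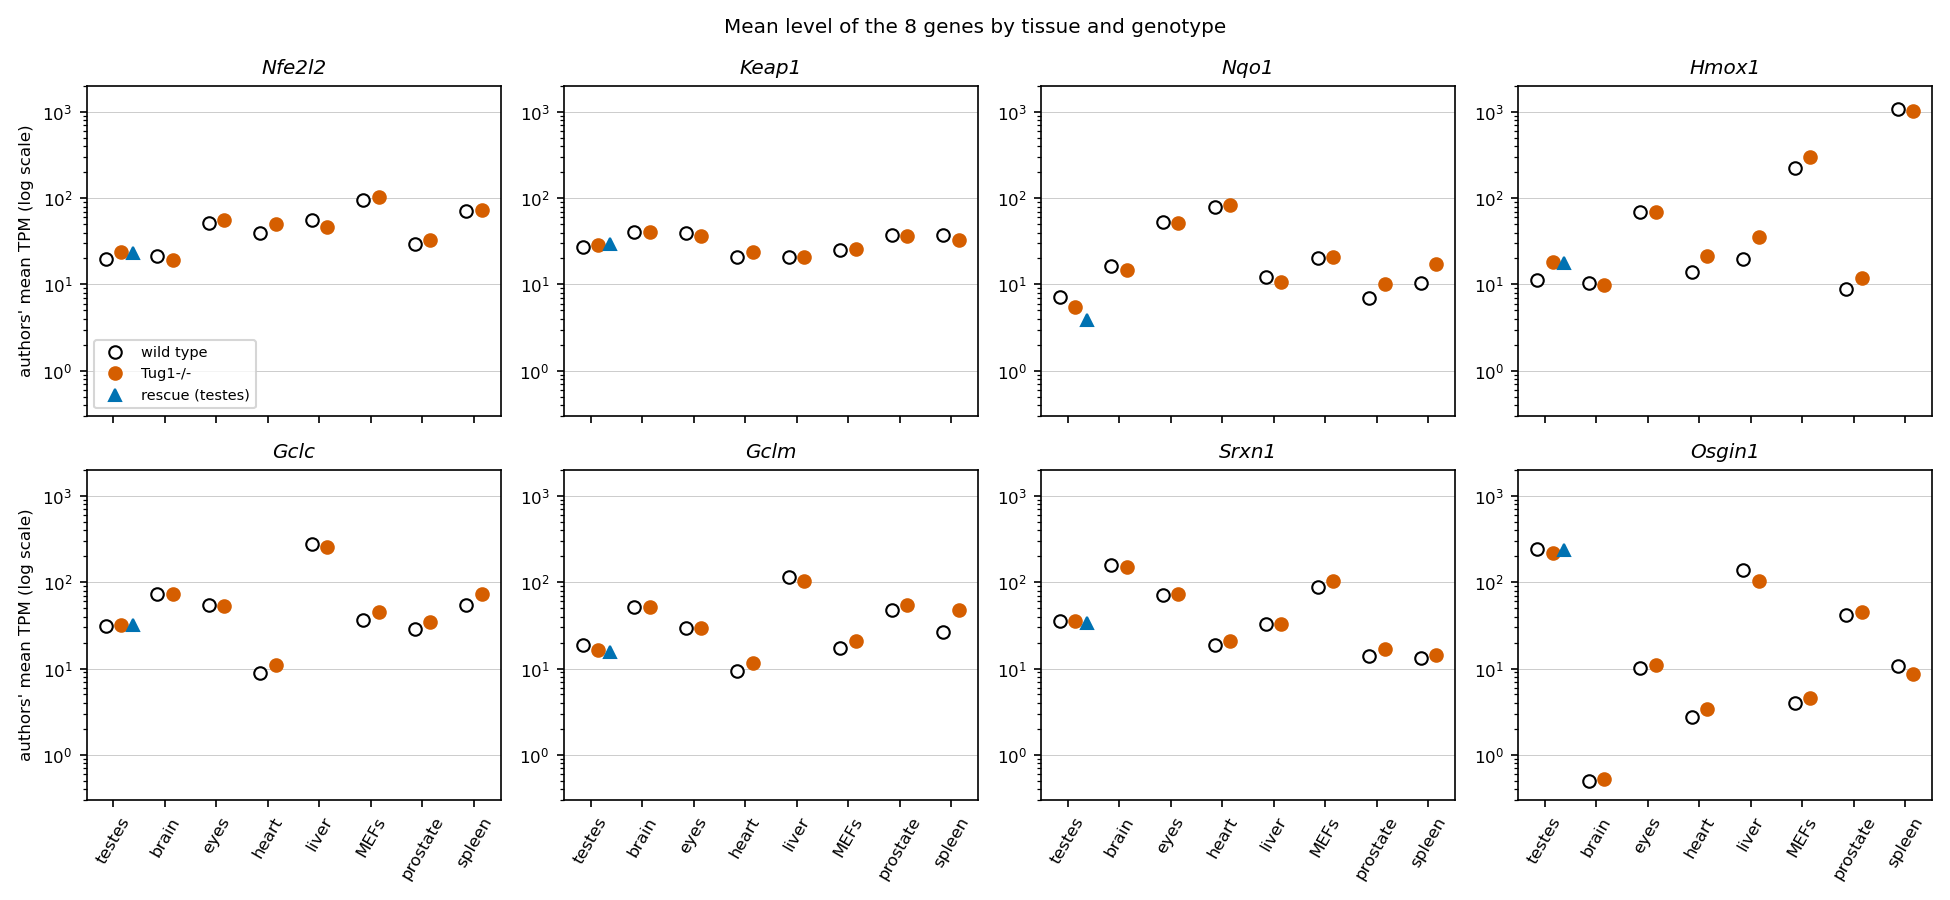
Authors' mean TPM (log scale) of each gene in 8 tissues, with open circles for wild type, filled circles for Tug1-/- and triangles for rescue testes. The tissues lie far apart for Hmox1 (8.87 to 1069 TPM in wild type) and Osgin1 (0.501 to 244 TPM), while the circles of both genotypes lie close together in most tissues.

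Across the 8 wild-type tissue means, on the log2 scale, Gclc and Gclm had a Pearson r of 0.88 and Nfe2l2 and Hmox1 of 0.80. The other 26 pairs of the 8 genes lay between -0.57 and 0.30. These are descriptions over 8 means that share one processing, and brain and testes stand apart from the rest in their library sets. Among 13267 protein-coding genes with at least 5 TPM in some tissue, the most alike to Keap1 were Tmub1 (r = 0.99), Nudt16l1 (0.98) and Ptrhd1 (0.98), and the most alike to Nfe2l2 were Parp3 (0.96), Mdfic (0.95) and Colec12 (0.93). Nqo1 was most like Itgb1bp2 (0.94), Cmya5 (0.94) and Fbxo40 (0.93), and Osgin1 was most like Pex11g (0.91), Lpcat3 (0.91) and Sqor (0.90). Hmox1 was followed most closely by Notch2 (0.98), Podnl1 (0.97) and Bcl2a1b (0.96), the last a member of a family of near-identical copies whose reads may be split. For Gclc these genes were Lpin2, Hgf and Tedc2 (0.95 each), for Gclm Acbd5 (0.97), Sec14l2 (0.96) and Cyp7b1 (0.95), and for Srxn1 Arhgap35 (0.98), Acvr2a (0.98) and Olfm2 (0.97).

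The question of the knockout comparison was how the 8 genes differed between Tug1-/- and wild type in each tissue. Of the 63 combinations of gene and tissue that passed the filter, 5 were past 1.5-fold and all 5 were higher in Tug1-/-. Over all genes and the same 8 tissues, 2.43% of combinations were past the limit and higher and 2.32% were past it and lower. The 5 combinations were Hmox1 in testes, heart and liver, and Gclm and Nqo1 in spleen. No combination was past the limit in the lower direction, and 49 of the 63 had a log2 ratio within 0.3 of 0. The widest difference between genotypes was 1.79-fold on the log2(TPM + 0.5) scale, for Hmox1 in liver.

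**Figure D2:**
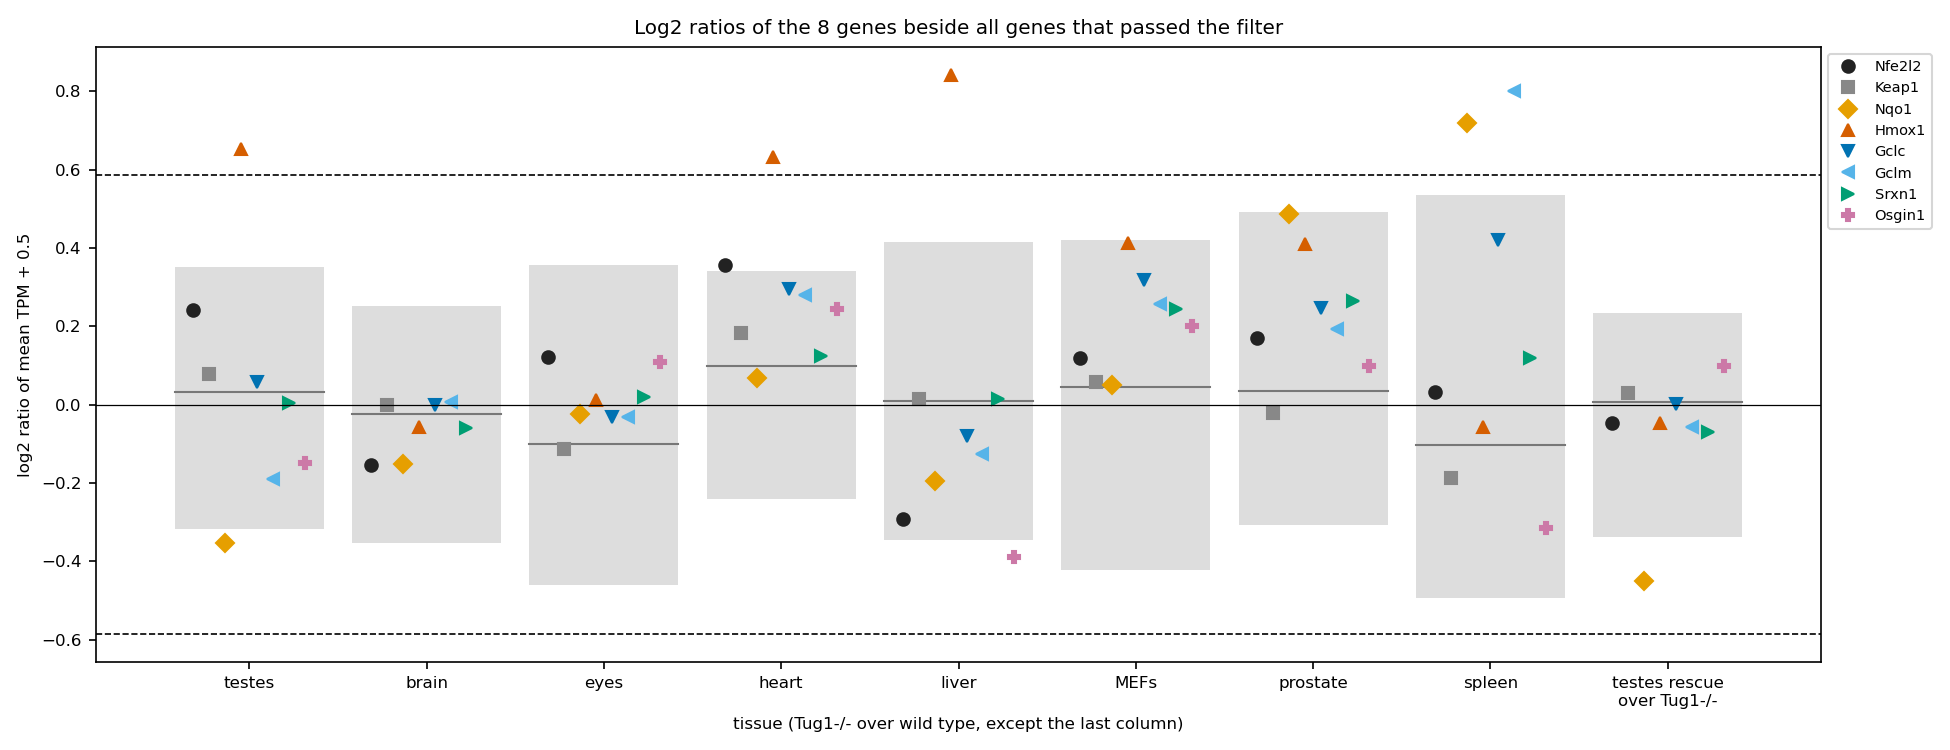
Log2 ratio of mean TPM + 0.5 of each gene (symbols) for 9 comparisons, with dashed lines at 1.5-fold, grey boxes from the 5th to the 95th percentile of all genes that passed the filter, and a grey line at their median. Hmox1 lies above the upper line in testes, heart and liver, as Gclm and Nqo1 do in spleen, and the lower line is passed by none.

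In liver, Hmox1 was 19.5 TPM in wild type against 35.3 TPM in Tug1-/-, a log2 ratio of 0.84, which was above 99.0% of the 11849 genes. It was the only one of the 8 genes past the limit, with a background of 2.42% of all genes higher and 1.79% lower. Gclc was 274 TPM in wild type against 260 TPM in Tug1-/-, Gclm 114 and 105 TPM, Nqo1 12.1 and 10.5 TPM, Nfe2l2 56.1 and 45.8 TPM and Osgin1 137 and 104 TPM. These means were thus lower in Tug1-/- by -0.08 (Gclc) to -0.39 (Osgin1) in log2, within the limit. Keap1 and Srxn1 were nearly level at 0.01 each. In all, 3 of 8 genes had a higher mean, beside 52.7% of all genes, and their median of -0.10 stood beside 0.01 for all genes.

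Markers of several other cell types moved with Hmox1 in liver. The summed mean of 9 macrophage markers was 312 TPM in wild type against 471 TPM in Tug1-/-, all 9 were higher, 2 of them (Lyz2 and Adgre1) past the limit, and the median was 0.49. The 3 red pulp macrophage markers that passed the filter were all higher, with Vcam1 past the limit (0.94). So were 3 smooth muscle markers, at low levels of 5.24 and 8.77 TPM in sum for the whole list, with 2 past the limit and a median of 0.67, and 3 fibroblast markers with none past it and a median of 0.27. Macrophages are a known site of Hmox1, and the part of any of these cells in the Hmox1 difference was not tested. In bulk tissue, fewer or more cells of a type and less or more RNA per cell cannot be told apart. Alas1, the first enzyme of haem synthesis, was 60.8 TPM in wild-type liver and 234 TPM in Tug1-/- liver, a log2 ratio of 1.94. It was the only one of the 8 genes fixed for haem and iron handling past the limit in liver, while Hmox2, the constitutive haem oxygenase, was not. The 3 hepatocyte markers were all within the limit, at 0.24 for Apoa1, 0.08 for Alb and -0.07 for Ttr.

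In heart, all 8 genes had a higher mean in Tug1-/-, and so did 75.3% of all genes. Hmox1 was 13.8 TPM in wild type against 21.6 TPM in Tug1-/-, a log2 ratio of 0.63, and was the only one past the limit, beside 1.23% of all genes higher and 1.39% lower. Nfe2l2 was 39.0 and 50.1 TPM (0.36), Gclc 8.91 and 11.0 TPM (0.29) and Gclm 9.47 and 11.6 TPM (0.28). Osgin1, Keap1, Srxn1 and Nqo1 had ratios between 0.07 and 0.25. The median of the 8 genes was 0.26 and that of all genes was 0.10.

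The scale of the heart libraries moved with this. Mitochondrially encoded genes took 47.5% of the TPM in wild-type and 43.8% in Tug1-/- heart, which leaves more of the scale to all other genes in Tug1-/-. With TPM rescaled without these genes the log2 ratio of Hmox1 was 0.55, and with the median of all genes set to 0 it was 0.54, both within the limit. Nqo1 was then lower in Tug1-/- when the median was set to 0, and 7 of the 8 genes were still higher. The 9 macrophage markers summed to 687 TPM in wild type against 864 TPM in Tug1-/- heart, with all 9 higher, Cd163 past the limit and a median of 0.42. The 4 B cell markers went the other way, from 40.1 to 18.4 TPM with all 4 past the limit, and 5 erythroid markers, blood genes in this tissue, summed to 44624 and 34952 TPM. The 3 heart muscle markers were all higher in Tug1-/-, with sums of 7101 and 8560 TPM, none past the limit and a median of 0.33. The 4 smooth muscle markers were all lower, with none past the limit and a median of -0.31. The part of these cells in the heart ratios was not tested.

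In spleen, the glutamate-cysteine ligase subunits and Nqo1 were higher in Tug1-/-. Gclm was 26.8 TPM in wild type against 47.1 TPM in Tug1-/- (0.80, above 97.3% of genes), Nqo1 was 10.4 and 17.4 TPM (0.72), and Gclc was 54.1 and 72.6 TPM (0.42, within the limit). Because Gclm differed more than Gclc, the ratio of their levels was 2.02 in wild type and 1.54 in Tug1-/-, which among the 8 tissues was the widest shift of this ratio. Hmox1, at 1069 and 1028 TPM, Nfe2l2, at 71.1 and 72.7 TPM, and Srxn1, at 13.1 and 14.3 TPM, differed little. Keap1 was 37.0 and 32.4 TPM and Osgin1 10.8 and 8.58 TPM. Past the limit were 2 of 8 genes, both higher, beside 4.44% of all genes higher and 3.03% lower. A higher mean was seen in 5 of 8 genes and in 29.6% of all genes, with medians of 0.08 and -0.10. When the median of all genes was set to 0, Hmox1 was the gene whose direction turned, and 6 of 8 were higher.

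Erythroid markers moved with Gclm and Nqo1 in spleen. Hba-a1, Hba-a2, Hbb-bs, Hbb-bt and Alas2 were all past the limit and higher, with a median of 0.92 and summed means of 24887 TPM in wild type against 44736 TPM in Tug1-/-. The globin copies are near-identical, so their reads may be split, and the sum is the safer value. Fech, which inserts iron into haem, was 146 TPM in wild type against 280 TPM in Tug1-/- spleen (0.93). The 4 B cell markers were lower, 4310 and 3237 TPM in sum, with none past the limit. The 9 macrophage markers, 7524 and 7085 TPM in sum, and the 4 red pulp macrophage markers, 913 and 960 TPM, stayed close, with Cd163 (0.61) the exception past the limit. Genes of neighbouring organs also differed, as Spink1, a pancreatic secretory gene, was listed at 0 in wild type and at 68.8 TPM in Tug1-/- spleen, and Alb was 16.4 TPM in wild type against 0.0843 TPM in Tug1-/-. The part of any of these cells in the Gclm and Nqo1 ratios was not tested.

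**Figure D3:**
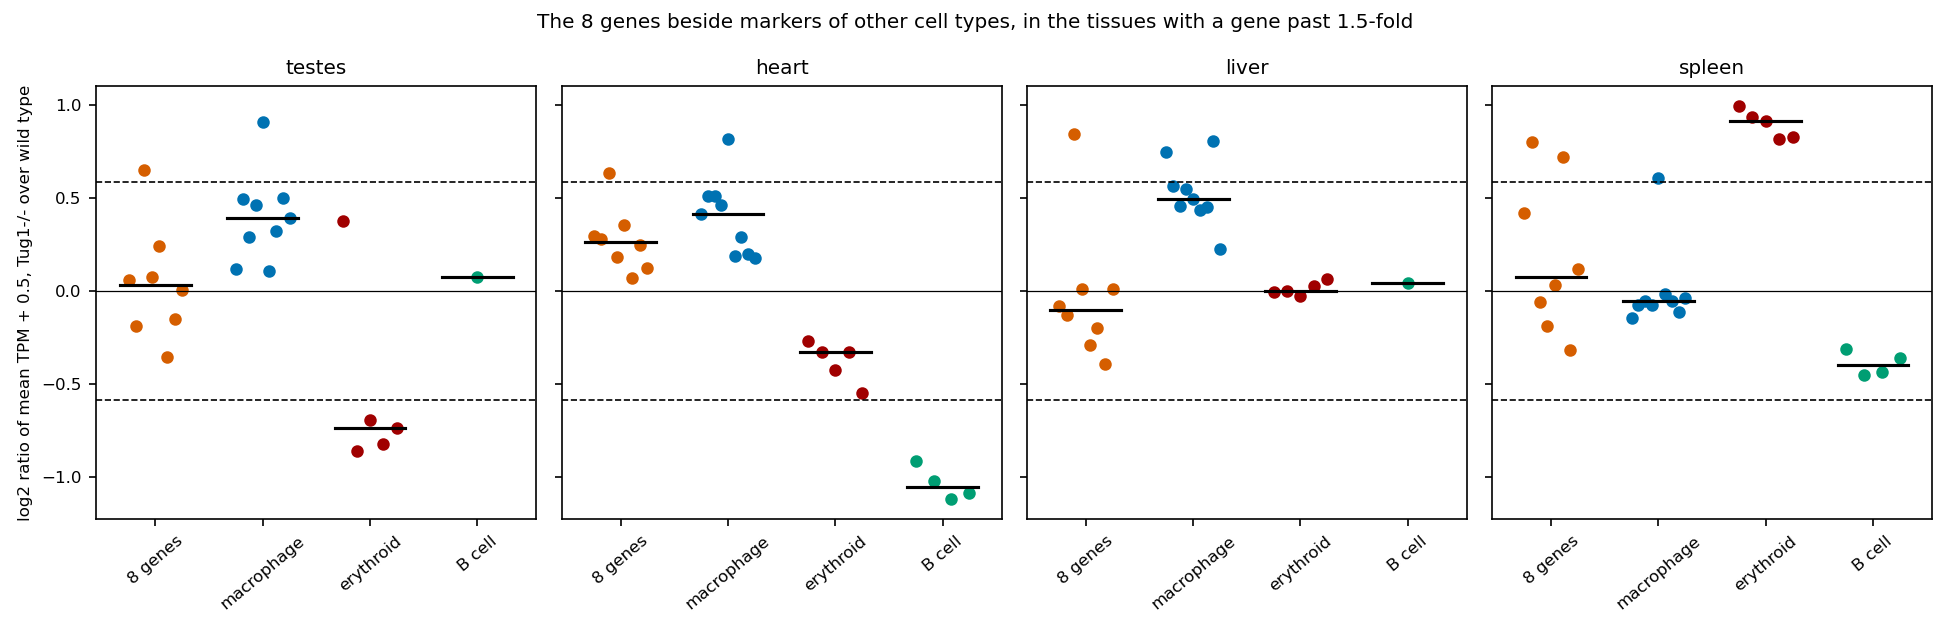
Log2 ratio of mean TPM + 0.5, Tug1-/- over wild type, of the 8 genes (the first column of each panel) and of macrophage, erythroid and B cell markers in testes, heart, liver and spleen. Each point is a gene that passed the filter, black bars are medians and dashed lines mark 1.5-fold. Macrophage markers have medians of 0.39, 0.42 and 0.49 in testes, heart and liver, where Hmox1 is past the limit. Their medians in prostate and eyes, not drawn, are 0.66 and 0.39, where Hmox1 is within it. Erythroid markers have a median of 0.92 in spleen, where Gclm and Nqo1 are past the limit. Their medians in eyes and prostate, not drawn, are 1.47 and 0.71, where both genes are within it.

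In testes, Hmox1 was 11.4 TPM in wild type against 18.2 TPM in Tug1-/-, a log2 ratio of 0.65, above 98.7% of the 21813 genes. It was the only one of the 8 past the limit, beside 1.73% of all genes higher and 2.45% lower. Nqo1 went the other way, with 7.14 TPM in wild type against 5.47 TPM in Tug1-/- (-0.35), within the limit, and 4.4% of all genes were at or below this ratio. Nfe2l2 was 19.9 and 23.7 TPM (0.24), Gclm 18.6 and 16.2 TPM (-0.19) and Osgin1 244 and 220 TPM (-0.15). Keap1, Gclc and Srxn1 had ratios of 0.08, 0.06 and 0.00. A higher mean was seen in 5 of 8 genes and in 62.1% of all genes. With the median of all genes set to 0, Srxn1 was lower instead.

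In rescue testes Hmox1 stood above the wild-type mean as well. It was 17.6 TPM, beside 18.2 TPM in Tug1-/-, a log2 ratio of -0.05. Nqo1 was 3.87 TPM in rescue, further from wild type than the 5.47 TPM of Tug1-/- (-0.45 over Tug1-/-), and stood at 54.2% of the wild-type mean. Osgin1 was 236 TPM in rescue, between 220 TPM in Tug1-/- and 244 TPM in wild type. Nfe2l2, Keap1, Gclc, Gclm and Srxn1 were 22.9, 29.5, 32.3, 15.6 and 33.6 TPM in rescue, each within 0.07 in log2 of Tug1-/-. In rescue over Tug1-/-, none of the 8 genes was past the limit, beside 0.666% of all genes higher and 1.83% lower, and 3 of 8 had a higher mean, beside 52.8% of all genes. Gclc was the one whose direction turned when the median of all genes was set to 0. Rescue over wild type, a comparison added after the values were seen, had Hmox1 past the limit and higher (0.61) and Nqo1 past it and lower (-0.81), beside 1.59% of all genes higher and 3.60% lower. With the median of all genes set to 0, Hmox1 was 0.57 there, within the limit. The testes comparisons share samples, so their ratios are not independent of each other.

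Markers of other cells also differed between the testes groups, in part along with these genes and in part not. The 9 macrophage markers summed to 122 TPM in wild type, 163 TPM in Tug1-/- and 163 TPM in rescue. All 9 were higher in Tug1-/- than in wild type, with Cd163 past the limit and a median of 0.39. In rescue over Tug1-/- they were split, with 4 of 9 higher, none past the limit and a median of -0.03. The 4 smooth muscle markers were all higher in Tug1-/-, with sums of 105 TPM in wild type, 144 TPM in Tug1-/- and 120 TPM in rescue and 1 past the limit in Tug1-/- over wild type. The 5 Leydig cell markers summed to 483 TPM in wild type against 742 TPM in Tug1-/-, with 3 of them past the limit, and to 639 TPM in rescue. Insl3 (144 TPM in Tug1-/-, 65.5 TPM in rescue) and Star (68.7 and 44.5 TPM) were past it and lower in rescue than in Tug1-/-. Hsd3b1 (0.22) and Cyp11a1 (0.13) were higher in rescue than in Tug1-/-, and Cyp17a1 was lower (-0.12), all within the limit. The 4 red pulp macrophage markers summed to 36.6 TPM in wild type, 44.4 TPM in Tug1-/- and 29.2 TPM in rescue. Of the 3 of them that passed the filter, 2 were higher in Tug1-/- than in wild type and none was higher in rescue than in Tug1-/-, with Vcam1 past the limit (-0.82). Of the 5 erythroid markers, the 4 globins were past the limit and lower in Tug1-/- than in wild type. Alas2 went the other way, with 18.3 TPM in wild type against 23.9 TPM in Tug1-/- (0.38). The 5 together summed to 47.3 TPM in wild type, 39.6 TPM in Tug1-/- and 39.6 TPM in rescue. The 4 epithelial markers followed the order of Nqo1, with 128 TPM in wild type, 76.5 TPM in Tug1-/- and 57.6 TPM in rescue. Krt18 among them was 29.7, 6.50 and 0.895 TPM and Cdh1 was 7.17, 2.40 and 0.671 TPM. Ggt1, which cleaves extracellular glutathione and is abundant in epithelia of the male tract, was 7.20 TPM in wild type against 1.45 TPM in Tug1-/- testes (-1.98). The part of these cells in the Hmox1 and Nqo1 values was not tested. The 3 germ cell markers were all within the limit in Tug1-/- over wild type, at -0.13 for Prm2, -0.10 for Prm1 and -0.06 for Tnp1.

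**Figure D4:**
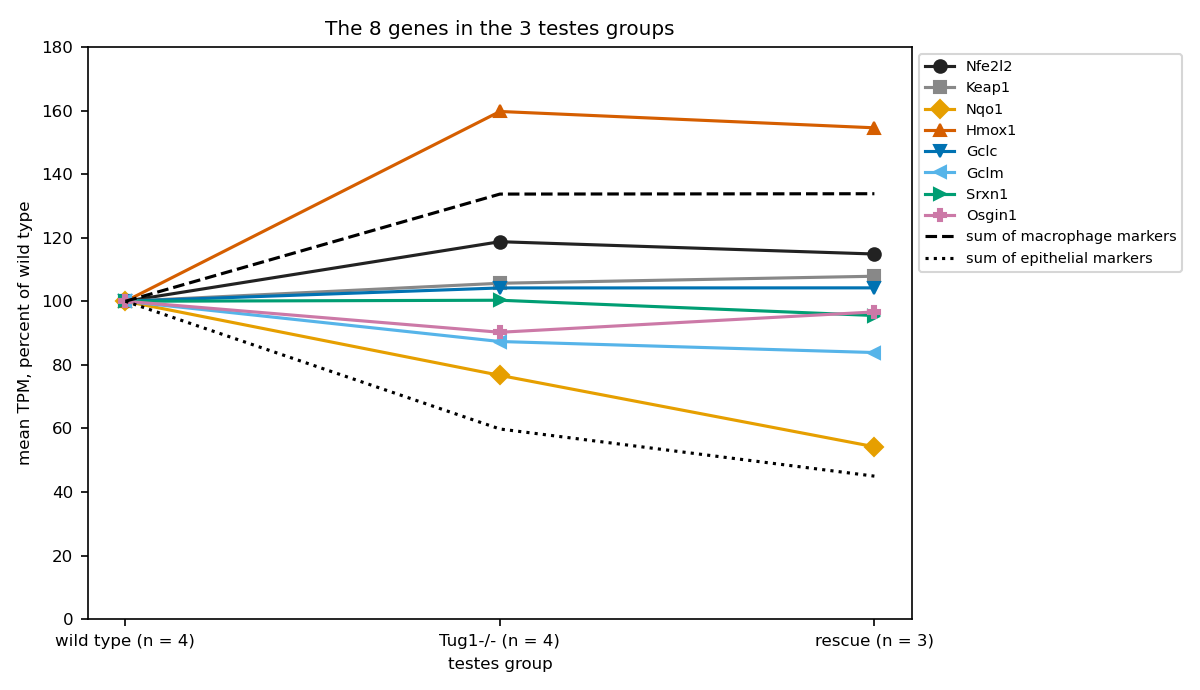
Mean TPM of the 8 genes in wild-type, Tug1-/- and rescue testes as a percent of the wild-type mean, with the summed macrophage markers (dashed) and epithelial markers (dotted) on the same scale. Hmox1 and the macrophage markers are above wild type in both other groups, as are the summed smooth muscle and Leydig markers, not drawn. Nqo1 (54.2% of wild type in rescue) and the epithelial markers are lowest in rescue.

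In MEFs, cultured cells without blood, all 8 genes had a higher mean in Tug1-/-, and 59.7% of all genes did. None was past the limit, beside 2.31% of all genes higher and 2.57% lower. Hmox1 was 226 TPM in wild type against 301 TPM in Tug1-/- (0.41), Gclc 36.2 and 45.2 TPM (0.32), Gclm 17.5 and 21.0 TPM (0.26), Srxn1 88.2 and 104 TPM (0.24) and Osgin1 3.93 and 4.59 TPM (0.20). Nfe2l2, Keap1 and Nqo1 had ratios between 0.05 and 0.12. The median of the 8 genes was 0.22 and that of all genes was 0.04. These directions were the same with the median of all genes set to 0. Nqo1 stayed higher only narrowly, at 0.049 beside that median of 0.045. Macrophage markers were present in the cultures, at 626 TPM in wild type against 688 TPM in Tug1-/- in sum, with a median of -0.39 over the 8 that passed the filter, so their median and their sum differed in sign. Their part was not tested.

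In prostate, where Tug1-/- had 2 samples, 7 of 8 genes had a higher mean and Keap1 a lower one, beside 59.0% of all genes higher. None was past the limit, beside 3.78% of all genes higher and 1.54% lower. Nqo1 was 7.01 TPM in wild type against 10.0 TPM in Tug1-/- (0.49), and its counting error of 5.47% in Tug1-/- was the largest among the 8 genes. Hmox1 was 8.87 and 12.0 TPM (0.41), Srxn1 14.1 and 17.0 TPM (0.26) and Gclc 29.0 and 34.5 TPM (0.25). The median was 0.22, beside 0.03 for all genes. The 9 macrophage markers were all higher in this tissue, 7 of them past the limit, with a median of 0.66 and sums of 280 and 442 TPM. The 5 erythroid markers were all higher too, 4 of them past the limit, with a median of 0.71 and sums of 161 and 292 TPM. Seminal vesicle secretory genes summed to 19856 TPM in wild type against 59286 TPM in Tug1-/- prostate. The part of these cells in the ratios was not tested.

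Eyes and brain showed the smallest differences. In eyes all 8 ratios lay between -0.11 for Keap1 and 0.12 for Nfe2l2, with Hmox1 at 68.3 and 68.9 TPM, and none was past the limit, beside 2.40% of all genes higher and 2.87% lower. The median of all genes was -0.10 there, so that 4 of 8 genes had a higher mean as measured, beside 27.6% of all genes, and 7 of 8 with that median set to 0, when Gclc, Gclm and Nqo1 changed direction. Erythroid markers in eyes summed to 699 TPM in wild type against 2179 TPM in Tug1-/-, with a median of 1.47. Macrophage markers summed to 903 and 1167 TPM, with a median of 0.39. Hmox1 was nearly level beside them, and so were Gclm (-0.03) and Nqo1 (-0.02). In brain, 7 genes passed the filter, 1 of 7 had a higher mean, beside 39.8% of all genes, and none was past the limit, beside 1.24% of all genes higher and 2.40% lower. The widest ratio was -0.15, for Nfe2l2 and Nqo1. Gclc, Keap1 and Gclm were within 0.01 of 0, and Gclc and Keap1 changed direction with the median set to 0.

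The wider pathway was read from 43 further genes in 4 lists, chosen for their known roles. The 10 partners and regulators of NRF2, among them Cul3, the small MAF genes and Bach1, had none past the limit in any of the 9 comparisons. In heart all 10 of them had a higher mean (median 0.16), as 75.3% of all genes did. Maff was 0.50 in heart and 0.50 in testes, within the limit in both, and Sqstm1, an autophagy receptor that binds KEAP1, was 0.43 in MEFs.

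Of the 22 further NRF2 targets, Gpx2 did not pass the filter anywhere and the others were mostly within the limit. In Tug1-/- over wild type, 19 of 20 passing in heart had a higher mean, beside 75.3% of all genes. The counts were 17 of 21 in MEFs (59.7% of all genes) and 15 of 21 in testes (62.1%). They were 15 of 21 in prostate (59.0%), 14 of 21 in eyes (27.6%) and 11 of 21 in spleen (29.6%). Liver had 11 of 19 (52.7%) and brain 9 of 21 (39.8%). The medians lay between -0.003 in brain and 0.17 in MEFs, with 0.14 in testes, beside -0.02, 0.04 and 0.03 for all genes. Abcc4, a drug and conjugate exporter, was 5.67 TPM in wild-type MEFs and 9.16 TPM in those without Tug1 (0.65). Slc7a11, the cystine importer that feeds glutathione synthesis, was 0.770 and 1.46 TPM in prostate (0.63). Rescue testes differed from Tug1-/- testes in the lower direction for 2 targets, the glutathione transferase Gstm1 with 598 TPM in Tug1-/- and 334 TPM in rescue (-0.84), and the carbonyl reductase Cbr3 with 4.15 and 1.67 TPM (-1.10). In that comparison 1 of the 21 targets that passed the filter had a higher mean, beside 52.8% of all genes, and the 2 lower calls stand beside 1.83% of all genes. Their median was -0.24, beside 0.01 for all genes. Leydig (2 of 5) and epithelial (3 of 4) markers were also past the limit and lower in rescue, while 2 of the 5 Leydig markers were higher, within the limit. The part of these cells in the values of the targets was not tested.

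The glutathione list of 8 genes held Ggt1, lower in testes and higher in prostate, where it was 36.4 and 56.7 TPM (0.63), and Slc7a11. Its other members, such as Gss, which completes glutathione, and the peroxidases Gpx1 and Gpx4, were within the limit in all 9 comparisons. The list for haem and iron handling held Alas1 past the limit in liver and Fech in spleen, and no further call. Over all 43 genes, 1 of 42 that passed the filter was past the limit in spleen, higher, beside 4.44% of all genes higher and 3.03% lower. In prostate 2 of 42 were higher (3.78% of all genes), in liver 1 of 39 was higher (2.42%) and in MEFs 1 of 41 was higher (2.31%). In testes 1 of 42 was lower (2.45%), and in rescue over Tug1-/- 2 of 42 were lower (1.83%), with 8 of 42 higher at any size, beside 52.8% of all genes. Brain, eyes and heart had none past the limit.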

How the data were processed

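PolyA+ RNA was sequenced from 46 samples in 15 groups taken from the labels. The authors aligned reads to GRCm38 with STAR, counted unique reads per GENCODE gene with featureCounts and dropped genes in which no replicate reached 3 reads. Whether strand was used is not given in the sources used here. The authors deposited group mean TPM for testes. For 7 other tissues the group mean TPM was deposited stacked in one table and is treated as a score, since its column holds all tissues. The deposited mean normalised count is a signal, the mean over both genotypes of counts divided by size factors, and gave a counting error of 1 over the square root of n times that mean. Depth per sample is unknown. In tissues other than testes the sum of mean normalised counts was 17573743 (brain) to 48341823 (eyes). The deposited fold changes, standard errors, p-values and adjusted p-values of the authors' own DESeq2 comparisons were not used.

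Ratios were computed with Python 3.11.15, pandas 2.3.3 and numpy 2.4.6 and tested on simulated data. The pseudocount was 0.5 TPM, the minimum average 1 TPM and the limit 1.5-fold, with 8 alternatives. Testes and the other tissues were normalised in separate tables, so levels across them rest on TPM alone. The members and lists were chosen with earlier results of these data known. Named were the 8 genes, Tug1, pathway genes past the limit, markers a check turns on and the 3 genes most alike to each by Pearson r; Alb, Prm1, Tnp1, Maff, Sqstm1, Hmox2, Gss, Gpx1, Gpx4 and Gpx2 were named as list members after their values were seen. One gene of the erythroid marker list is not reported here, and its values enter no sum or count.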

Additional observations from a re-analysis of the deposited data

How the results depend on the processing

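No paired analysis was possible because the tables hold group means and no value of a single sample, and for the same reason no sample could be left out. Under 8 alternatives the 79 log2 ratios of the 8 genes, rescue over wild type included, gave 629 values. Of these, 611 kept their direction or lay within the limit as before, 10 called values came within the limit, 8 further values passed it and none of the called ratios reversed. With a looser limit of 0.32 in log2, 2 genes were past it in testes, heart, liver and prostate, 1 in MEFs and in rescue over Tug1-/-, and 3 in spleen. Of the added calls, Nqo1 in testes (-0.35), Osgin1 in liver (-0.39) and Nqo1 in rescue over Tug1-/- (-0.45) were lower. Beside these counts, the share of all genes past that limit in either direction was 10.8% in testes, 9.28% in heart, 13.5% in liver, 14.4% in prostate, 17.2% in MEFs, 8.17% in rescue over Tug1-/- and 22.6% in spleen. With a limit of 2-fold, 0 were past it in testes, heart, liver, spleen and rescue over wild type. With the median of all genes set to 0, 0 were past it in heart (Hmox1 0.54) and 1 in rescue over wild type (Nqo1), and with TPM rescaled without mitochondrially encoded genes 0 were past it in heart (Hmox1 0.55). Changing the pseudocount to 0.1 or 1 TPM, leaving out the filter or raising it to 5 TPM moved no count of calls by over 1.5 times.

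The ratios were computed from group means of 2 to 4 samples in the tissues of the series, and they were not set against the spread between animals here.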
